A study of Homo sapiens with 30 samples.

Results

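To follow the genes that the syncytiotrophoblast uses to make placental hormones and steroids, 10 genes were read in RNA-seq of H9 human embryonic stem (hES) cells, an established line. They are the gonadotropin subunit genes CGA, CGB3, CGB5, CGB7 and CGB8, the steroid enzyme genes CYP11A1, HSD3B1 and CYP19A1, the growth factor gene PGF and the relaxin family gene INSL4. They were taken by symbol from tables that list 28307 genes in each of 30 libraries. The genes were chosen by measured values of these libraries, among them the levels of CGA and CGB3 in the knockout cells and their wild-type controls. The knockout comparison is therefore given as a description, with no p-value.

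The syncytiotrophoblast is the multinucleate outer layer of the placenta and forms by fusion of trophoblast cells. It secretes chorionic gonadotropin, a dimer of the common alpha subunit (CGA) and a beta subunit encoded by the CGB copies, which keeps the corpus luteum active in early pregnancy. It also makes progesterone from cholesterol through CYP11A1 and HSD3B1, and oestrogen from androgens through CYP19A1 (aromatase). Naive hES cells resemble the epiblast of the blastocyst before implantation and can enter the trophoblast lineage, whereas primed hES cells resemble the epiblast after implantation.

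The libraries form 10 groups of 3, all from H9. Naive cells kept in PXGL medium gave PXGL WT, PXGL KO (a homozygous knockout, 1 clone), CRISPRi UT and CRISPRi Dox (clones that carry dCas9-KRAB under a doxycycline-inducible promoter and a guide RNA, left untreated or given doxycycline), and siScr, siSPEN1 and siSPEN2 (cells transfected with scrambled siRNA or with siRNA mix 1 or 2 against SPEN, a transcriptional corepressor). Naive cells made with NaiveCult medium gave NaiveCult WT and XACT KO (3 clones with a homozygous deletion over the start sites of XACT, a long noncoding RNA gene). Primed WT cells grew on Matrigel in mTeSR1, and the naive cells on mouse embryonic fibroblasts. The study's reporting summary calls the libraries of each group biological replicates, apart from those of the knockout, which it calls technical replicates. The 3 PXGL KO libraries come from the same clone, so the knockout and the clone cannot be told apart, and SEs that rest on them measure technical spread within that clone.

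Library totals ranged from 31190052 to 65637976 counts. SPEN was at 283.9 to 376 CPM (counts scaled to an equal library total) in siScr, 152 to 177 in siSPEN1 and 152 to 167 in siSPEN2, and XACT at 1.14 to 2.17 CPM in NaiveCult WT and 0 to 0.124 CPM in XACT KO. The 8 naive markers summed to 2154 to 3271 CPM in the naive libraries and 26.2 to 31.9 CPM in Primed WT, and the 7 primed markers to 123 to 248 and 4755 to 5109 CPM. Library names fall in 3 sets: the CRISPRi, PXGL WT and PXGL KO libraries, the siRNA libraries, and the NaiveCult WT, XACT KO and Primed WT libraries. PXGL WT therefore shares no set with NaiveCult WT or Primed WT, and the set cannot be told apart from the cell state in those comparisons.

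The sequences just upstream of the gonadotropin genes are shown because the copies behave differently in naive and primed cells. CGA holds the tandem letters TGACGTCA, the cyclic AMP response element (CRE), in capitals. The sequences are from RefSeq on GRCh38.p14, end at the base before the annotated start and are written 5′ to 3′ on the strand of the gene. CGA lies at chr6:87095107-87095266, minus strand, CGB3 at chr19:49024334-49024433, minus strand, CGB5 at chr19:49043748-49043847, plus strand, CGB8 at chr19:49049112-49049211, minus strand and CGB7 at chr19:49057750-49057849, minus strand. The RefSeq start of CGB7 lies inside the longer GENCODE 44 span of that gene, which begins further upstream.
CGA: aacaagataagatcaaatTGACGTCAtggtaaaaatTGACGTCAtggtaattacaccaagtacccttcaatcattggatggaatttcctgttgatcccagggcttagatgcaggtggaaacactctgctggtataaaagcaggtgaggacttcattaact
CGB3: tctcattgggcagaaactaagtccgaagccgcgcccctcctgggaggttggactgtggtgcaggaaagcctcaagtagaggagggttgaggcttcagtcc
CGB5: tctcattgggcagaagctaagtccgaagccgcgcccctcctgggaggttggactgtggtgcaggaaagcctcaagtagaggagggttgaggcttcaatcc
CGB8: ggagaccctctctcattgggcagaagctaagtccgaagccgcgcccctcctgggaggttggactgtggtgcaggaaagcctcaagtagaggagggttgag
CGB7: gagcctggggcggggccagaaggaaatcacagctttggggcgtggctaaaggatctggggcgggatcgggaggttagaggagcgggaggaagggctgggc

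In the 250 bases before the start, CGA holds 2 CRE matches, which begin 142 and 124 bases upstream. CGB1 and CGB2 hold 1 each, and none of CGB3, CGB5, CGB8, CGB7 or the other members holds one in the windows listed. These 8 letters, which read the same on both strands, occur in 1.65% of 35116 such windows. CGB3, CGB5 and CGB8 were near-identical in the same window, with 96.8% identical bases between CGB3 and CGB5, 97.9% between CGB3 and CGB8 and 97.5% between CGB5 and CGB8. CGB7 shared 0 of 239 words of 12 bases with any of these 3 copies, or with CGB1 and CGB2. CGB1 and CGB2 had 87.6% identical bases with each other.

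The transcripts of these copies are also alike, which limits how well reads can be assigned. Of the 100-base windows along the annotated transcripts, 71.5% in CGB5, 67.1% in CGB8 and 62.2% in CGB3 occur unchanged in another CGB copy, against 39.5% in CGB1, 38.3% in CGB2 and 7.82% in CGB7. The separate levels of CGB3, CGB5 and CGB8 are thus uncertain, and the sum over CGB1, CGB2, CGB3, CGB5, CGB7 and CGB8 is given beside them as the CGB sum. All 6 copies lie between 49022869 and 49058860 on chromosome 19 (hg38, GENCODE 44). CGA spans chromosome 6, 87085498 to 87095106, minus strand.

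By group mean, all 10 genes were highest in the NaiveCult groups. CGA was at 267, 237 and 309 CPM in the 3 NaiveCult WT libraries, at 2.65, 2.228 and 2.49 CPM in PXGL WT and at 0 counts in every Primed WT library. Each group was apart from the next. A count of 0 over the 3 Primed WT libraries allows a level of up to 0.0179 CPM, counting error only. The CGB sum was at 121, 95.0 and 155 CPM in NaiveCult WT, 3.10, 3.11 and 2.45 CPM in PXGL WT and 1.66, 1.01 and 1.84 CPM in Primed WT.

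The steroid enzymes had the same top groups. CYP11A1, which cleaves the side chain of cholesterol, was at 37.9, 40.5 and 55.5 CPM in NaiveCult WT, 1.59, 1.21 and 1.51 in PXGL WT and 6.17, 5.92 and 5.74 in Primed WT. Its order thus differed from that of CGA, with Primed WT above every PXGL library. HSD3B1, which turns pregnenolone into progesterone, was at 56.4, 60.5 and 67.8 CPM in NaiveCult WT and 0.286, 0.284 and 0.325 in PXGL WT, with 0 counts in Primed WT. CYP19A1 was at 55.3, 39.9 and 67.3 CPM in NaiveCult WT and 1.08, 1.68 and 1.19 in PXGL WT, with 3 counts in all of Primed WT.

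The secreted factors were highest in the NaiveCult groups as well. PGF, a relative of VEGF that binds the receptor FLT1, was at 114, 76.1 and 139 CPM in NaiveCult WT, while PXGL WT (5.91, 5.21 and 7.88) and Primed WT (7.09, 6.52 and 7.24) overlapped. INSL4, a placental peptide of the relaxin family, was at 6.12, 5.48 and 9.93 CPM in NaiveCult WT, had 5, 0 and 3 counts in PXGL WT and 0 in Primed WT.

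**Figure D1:**
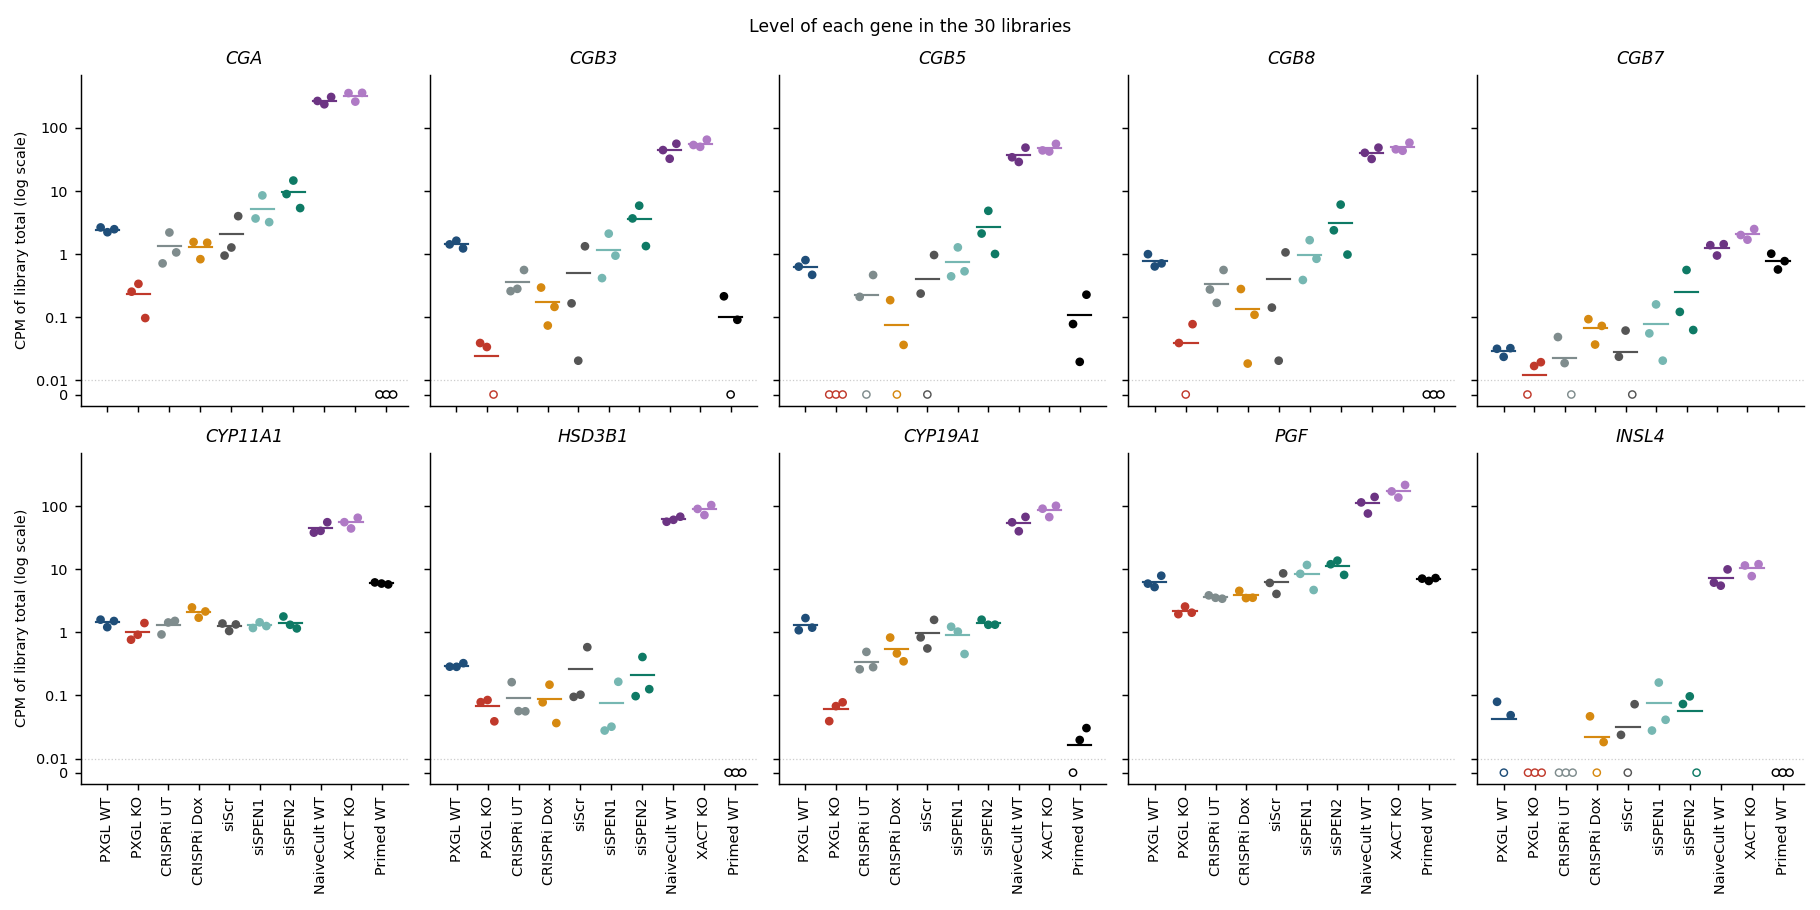
Level of each of the 10 genes in the 30 libraries, in CPM of the library total on a log axis. Points are libraries, lines are group means, and open points at the foot of the axis are libraries with 0 counts. The NaiveCult WT and XACT KO libraries lie above all others for every gene but CGB7, with CGA at 237 to 359 CPM. For CGB7, NaiveCult WT replicate 2 (0.952 CPM) lies below Primed WT replicate 1 (1.02 CPM).

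Compared per kilobase of annotated exon within NaiveCult WT, CGA had the highest level, 137 ± 18.3 CPM per kb (SD, n = 3). CGB3 (50.6 ± 13.5), CGB8 (45.6 ± 9.26) and CGB5 (42.5 ± 11.7) followed and differed by less than 1 SD. HSD3B1 stood at 25.2 ± 2.37, PGF at 18.9 ± 5.48, CYP11A1 at 13.1 ± 2.79 and CYP19A1 at 6.43 ± 1.63 CPM per kb. INSL4 (3.68 ± 1.23) and CGB7 (0.372 ± 0.0792) were the lowest. In PXGL WT the order was another one, with CGB3 at 1.63 ± 0.228, CGA at 1.24 ± 0.108 and PGF at 1.09 ± 0.238 CPM per kb, and HSD3B1 at 0.122 ± 0.00942. The counts of CGA were 1.99 to 2.49 times those of the CGB copies in NaiveCult WT and 0.718 to 1.01 times in PXGL WT. These ratios are of raw counts, not corrected for exon length (1984 bases for CGA, 877 for CGB3), so they do not compare transcript levels. Any reads dropped because they fit several CGB copies would lower the CGB counts and the levels of the copies.

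The copies that made up the CGB sum differed between naive and primed cells. In NaiveCult WT, 35.9% of 15943 CGB counts were of CGB3, 32.6% of CGB8 and 30.2% of CGB5, with 1.02% of CGB7 and 0.132% of CGB2. In Primed WT the 257 CGB counts were mainly of CGB7 (51.4%) and CGB2 (33.5%), against 6.61% of CGB3, 7.78% of CGB5 and 0 of CGB8. CGB7 had 52, 29 and 51 counts in the 3 Primed WT libraries and CGB2 17, 20 and 49, whereas PXGL WT, with more CGB counts, had 2, 1 and 2 counts of CGB7 and none of CGB2. Upstream of the RefSeq start used, CGB7 is the copy that shares no word with the others, but that start lies inside its longer GENCODE span. CGB2 is not a member but one of the copies with a CRE match, as is CGB1, which had 0.778% of the Primed WT CGB counts. Neither CGB1 nor CGB2 shares a word with CGB3, CGB5 or CGB8. Whether the upstream sequences bear on these shares was not tested.

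**Figure D2:**
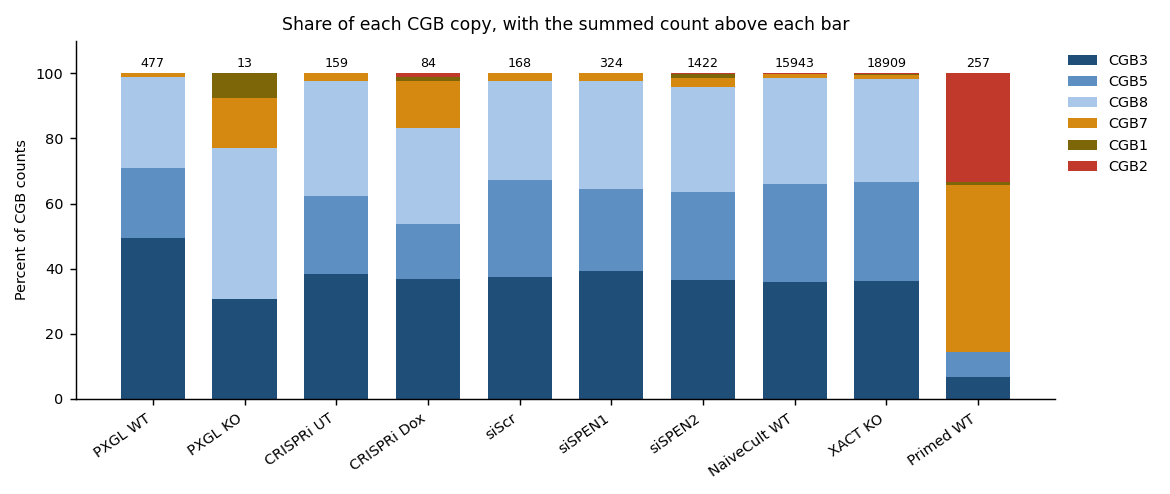
Percent of all CGB counts given to each CGB copy, for the 10 groups, with the summed count of 3 libraries above each bar. CGB3, CGB5 and CGB8 make up most of the counts in the naive groups, and CGB7 (51.4%) and CGB2 (33.5%) in Primed WT. PXGL KO rests on only 13 counts.

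Which of the 10 genes separate the states was tested with edgeR's quasi-likelihood test, and a call needed a Benjamini-Hochberg adjusted p under 0.05 with a log2 fold change past 1. Between NaiveCult WT and Primed WT, 9 of 10 were called higher, against 21.1% of 18663 genes tested. CGA, CGB8, HSD3B1, CYP19A1 and INSL4 had at most 3 counts over the 3 Primed WT libraries, CGB3 had 17 and CGB5 had 20. These members entered the test through the naive groups alone, so this count is a description. CGA was at least 15133-fold higher, HSD3B1 at least 3444-fold, CGB8 at least 2259-fold and INSL4 at least 403-fold. CYP19A1 had a ratio of 3028 (95% counting interval 1036 to 14687). On the log2 scale PGF was higher by 4.13 (SE 0.19, edgeR adjusted p = 8.3e-11) and CYP11A1 by 3.06 (SE 0.13, edgeR adjusted p = 3.5e-11). CGB7 changed least, by 0.82 (SE 0.27, edgeR adjusted p = 0.011), with overlapping CPM ranges. It was not called.

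Between PXGL WT and Primed WT, 7 of 10 were called higher and 2 lower, against 25.8% and 29.1% of all genes tested. This count is a description too, since the members with few or no Primed WT counts passed the filter through the naive groups, and the PXGL WT levels of CGA and CGB3 were among the values that chose the members. CYP11A1 fell by 1.82 (SE 0.16, edgeR adjusted p = 7.5e-08). CGB7 fell by 4.41 (SE 0.46), given as a description, since with 5 counts in PXGL WT it passed the filter through other groups. CGB3 was higher by 3.97 on the log2 scale (SE 0.48), and the CGB sum, which includes CGB7 and CGB2, by 1.11 (SE 0.25). The CGB sum fell short of the fold threshold without Primed WT replicate 2 (0.90) and without TMM factors (0.91), which ended its call. PGF differed by 0.083 (SE 0.20, edgeR adjusted p = 0.71). INSL4, with 8 counts against 0, lost its call without PXGL WT replicate 1 (edgeR adjusted p = 0.089) or Primed WT replicate 3 (0.060).

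Between the naive media, 10 of 10 were lower in PXGL WT than in NaiveCult WT, against 11% of genes tested. This count is again a description. CGB7 and INSL4, with 5 and 8 counts in PXGL WT, passed the filter through other groups, and the PXGL WT levels of CGA and CGB3 were among the values that chose the members. The log2 fold changes ran from -7.62 (HSD3B1, SE 0.13, edgeR adjusted p = 1.7e-12) to -4.05 (PGF, SE 0.19, edgeR adjusted p = 3.7e-10). CGA, given as a description, was lower by a log2 fold change of -6.72 (SE 0.11) and the CGB sum by one of -5.37 (SE 0.19). The 12 trophectoderm and trophoblast markers summed to 237 to 271 CPM in NaiveCult WT, 140 to 144 in PXGL WT and 11.9 to 12.5 in Primed WT, and the 4 amnion markers to 67.9 to 126, 7.25 to 8.60 and 12.6 to 13.0 CPM. Most of the amnion sum was IGFBP3 (90.7 ± 29.4 CPM in NaiveCult WT and 0.717 ± 0.0548 in PXGL WT, SD, n = 3), and 2 of the 4 were called lower in PXGL WT, while ISL1 stood on the other side (4.17 ± 0.114 and 7.01 ± 0.733). The hypoblast markers summed to 71.3 to 78.1 CPM in PXGL WT and 63.7 to 66.6 in NaiveCult WT, with 2 called higher and 2 lower in PXGL WT. GCM1, a transcription factor of syncytiotrophoblast formation, was at 57.7 ± 6.69 CPM (SD, n = 3) in NaiveCult WT and 41.6 ± 1.54 in PXGL WT. The part of these cells in the levels was not tested. In bulk libraries, fewer cells of a type and less RNA per cell cannot be told apart.

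Other genes of the syncytiotrophoblast were also mostly lower in PXGL WT than in NaiveCult WT. Of 33 other syncytiotrophoblast genes 25 were tested, and 20 were called lower and 1 higher (median log2 fold change -3.60, against 0.00211 over all genes). PSG5, a pregnancy-specific glycoprotein, was at 0.0107 ± 0.00928 CPM in PXGL WT and 8.98 ± 1.70 in NaiveCult WT, and the endogenous retroviral envelope ERVV-2 at 2.54 ± 0.251 and 30.98 ± 8.03. The placental lactogen genes CSH1, CSH2 and CSHL1 were at 0 counts in NaiveCult WT, which allows up to 0.0233 CPM. TFPI2, a protease inhibitor, was the gene called higher in PXGL WT, at 20.4 ± 0.698 against 3.89 ± 0.879 CPM.

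Of 18 partners in the steroid pathway, 14 were tested and 2 were called higher and 2 lower between the media. STS, the sulfatase that frees steroid precursors, was at 26.0 ± 0.859 CPM in PXGL WT and 256 ± 41.0 in NaiveCult WT (log2 -3.25, SE 0.11, edgeR adjusted p = 1.2e-11). HSD17B1, which makes estradiol from estrone, was at 1.59 ± 0.156 and 35.4 ± 5.39 CPM (log2 -4.42, SE 0.15, edgeR adjusted p = 2.1e-11). STAR and HSD11B2 were called higher in PXGL WT. STAR, which carries cholesterol into mitochondria in the adrenal and gonad but is little used by the placenta, stood at 5.11 ± 0.569 CPM in Primed WT, 0.742 ± 0.159 in PXGL WT and 0.180 ± 0.0558 in NaiveCult WT, the reverse of HSD3B1 and CYP19A1. FDX1, which passes electrons to CYP11A1, was between 28.1 and 34.1 CPM on average in these 3 groups.

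The receptors and partners of these hormones varied among themselves. FLT1, the receptor of PGF, was at 1.61 ± 0.378 CPM in NaiveCult WT, 1.86 ± 0.506 in PXGL WT and 314 ± 11.5 in Primed WT. LHCGR, the receptor of chorionic gonadotropin, averaged at most 0.225 CPM in any group, and LHB, the pituitary counterpart of the CGB copies, at most 0.263 CPM. NRP1, a coreceptor of PGF, was at 15.6 ± 4.69 CPM in NaiveCult WT and 0.468 ± 0.183 in PXGL WT (log2 -4.98, SE 0.27, edgeR adjusted p = 1.1e-09). Of 15 receptors and partners 9 were tested here, and 1 was lower and 1 higher in PXGL WT.

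The patterns of CGA and of the CGB sum over the 10 group means were compared with those of 16003 genes on the log2(CPM + 0.1) scale, as a description across groups that share sets and controls. The genes most like CGA were ERVV-1 (Pearson r = 0.996), ERVV-2 (0.991), CGB8 (0.986), GPR32 (0.984) and CYP19A1 (0.981). Those most like the CGB sum were PGF (0.975), GPR32, PRR9 and TREML2 (each 0.951) and CPM (0.950), here the carboxypeptidase gene. Among the members compared, CYP11A1 was the least like CGA (0.723). CGB7 was left out, as its mean over the 30 libraries was under 0.5 CPM.

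In the knockout, the gonadotropin, aromatase and PGF levels were lower than in wild type, while the summed trophoblast markers overlapped. CGA had 13, 20 and 5 counts in the 3 PXGL KO libraries and 167, 94 and 153 in PXGL WT. The CGB sum had 4, 4 and 5 counts against 195, 131 and 151, and CYP19A1 had 2, 4 and 4 against 68, 71 and 73. These ranges lie far apart. PGF was at 1.94, 2.56 and 2.05 CPM against 5.91, 5.21 and 7.88, and HSD3B1 had 4, 5 and 2 counts against 18, 12 and 20.

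Of the 8 members that passed the filter on low counts, 7 were called lower in PXGL KO, the direction in which 0.376% of 17286 genes were called. This count is a description, since the levels of CGA and CGB3 in these groups were among the values that chose the members. HSD3B1 also passed the filter through PXGL WT, where it was high. The log2 fold changes were -3.38 for CGA (SE 0.40), -5.73 for CGB3 (SE 0.56), -4.33 for CGB8 (SE 0.70), -4.35 for CYP19A1 (SE 0.45), -2.10 for HSD3B1 (SE 0.54) and -1.54 for PGF (SE 0.15). CGB5, with 0 counts against 103, was at least 33.2-fold lower. CYP11A1 was the member that was not called, at 0.765, 0.916 and 1.40 CPM against 1.59, 1.21 and 1.51 (log2 -0.50, SE 0.24). HSD3B1 lost its call without PXGL KO replicate 3, at a log2 fold change of -1.85. CGB7 (2 counts against 5) and INSL4 (0 against 8) were too low to test.

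The 12 trophectoderm and trophoblast markers summed to 140 to 145 CPM in PXGL KO and 140 to 144 in PXGL WT, and GCM1 was at 50.6 ± 1.55 and 41.6 ± 1.54 CPM. Of 11 markers tested, TP63 was called, lower, at 0.0260 ± 0.0298 against 0.176 ± 0.156 CPM, and by the adjusted p alone 2 were higher and 4 lower. Of 33 other syncytiotrophoblast genes 11 were tested, and the retroviral envelopes ERVFRD-1 (0.115 ± 0.0554 against 0.809 ± 0.0810 CPM) and ERVV-1 (0.125 ± 0.0445 against 0.527 ± 0.125 CPM) were called lower. ERVW-1, the envelope known as syncytin-1, stood on the other side, at 36.8 ± 0.233 CPM in PXGL KO and 24.9 ± 0.741 in PXGL WT. Of 14 tested steroid partners 1 passed the adjusted p alone, higher, and stayed short of the fold threshold.

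The control groups in PXGL medium (PXGL WT, the untreated clones CRISPRi UT and the transfected siScr) differed among themselves in the same genes, a difference that was not tested. The CGB sum was 2.45 to 3.11 CPM in PXGL WT, 0.472 to 1.59 in CRISPRi UT and 0.103 to 3.37 in siScr, against 0.0678 to 0.0975 in PXGL KO. CYP19A1 was 1.08 to 1.68 CPM in PXGL WT, 0.260 to 0.490 in CRISPRi UT, 0.556 to 1.58 in siScr and 0.0392 to 0.0780 in PXGL KO. Every PXGL KO library thus lay below every other naive library for these, but the distance to the nearest one was short for the CGB sum.

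With doxycycline the picture was another one. CGA had 100, 45 and 83 counts in CRISPRi Dox and 44, 117 and 57 in CRISPRi UT, with overlapping ranges (log2 -0.021, SE 0.32, edgeR adjusted p = 0.97). CYP19A1 had 53, 25 and 19 counts against 16, 26 and 15 (log2 0.68, SE 0.36, edgeR adjusted p = 0.15), and PGF was at 4.54, 3.49 and 3.53 CPM against 3.85, 3.53 and 3.41 (log2 0.089, SE 0.15, edgeR adjusted p = 0.67). None of these groups stood apart.

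edgeR called 0 of 8 tested members in either direction, against 2.26% of genes called higher and 1.55% lower, and DESeq2 also called 0. At an unadjusted p under 0.05 CYP11A1 was higher and CGB3 lower, 1 member each, against 24.5% and 23.2% of genes. CYP11A1 was at 2.48, 1.71 and 2.14 CPM against 0.926, 1.43 and 1.52 and passed the adjusted p but not the fold threshold (log2 0.70, SE 0.23, edgeR adjusted p = 0.018). By the adjusted p alone, at any fold, 20.7% of genes were higher. The CGB sum had 56, 7 and 21 counts against 49, 25 and 85 (log2 -1.005, SE 0.43, edgeR adjusted p = 0.071). It depended on single libraries: the log2 fold change was -1.88 without CRISPRi Dox replicate 1 (edgeR adjusted p = 0.0028), -1.32 without CRISPRi UT replicate 2 (0.024), -0.58 without CRISPRi Dox replicate 2 (0.23) and -0.43 without CRISPRi UT replicate 3 (0.48). Without CRISPRi Dox replicate 1, CGB3, CGB5 and CGB8 were called lower, and CRISPRi Dox replicate 1 was the highest of its group for 9 of 10 members.

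The knockout effect and the doxycycline effect differed at an edgeR adjusted p under 0.05 for 7 of 8 tested members, against 21.8% of genes, a count that rests in part on the knockout values that chose the members.

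CGA and the CGB copies parted in CRISPRi UT replicate 2. This library had the most CGA counts of its group (117) and the fewest CGB counts (25), a ratio of 4.68, whereas replicates 1 and 3 had ratios of 0.898 and 0.671. In CRISPRi Dox both ranked the libraries alike, with 100, 45 and 83 counts of CGA and 56, 7 and 21 of the CGB copies. The sums of the trophoblast and amnion markers were higher with doxycycline, as were those of the hypoblast, primed and core pluripotency markers. The hypoblast markers summed to 92.5 to 108 CPM against 76.1 to 78.6, with 1 of 6 called lower and 0 higher. The naive markers summed to 2563 to 2706 CPM against 2895 to 2993. The trophoblast list summed to 173 to 201 CPM against 149 in each CRISPRi UT library, and of its 11 tested genes 2 were called higher, HAND1 (8.32 ± 1.90 against 2.42 ± 0.638 CPM) and TP63, while by the adjusted p alone 6 were higher and 3 lower. Of 4 amnion markers 3 were called higher, among them VTCN1 (1.28 ± 0.362 against 0.102 ± 0.0662 CPM). ERVW-1 stood at 69.4 ± 9.12 against 21.7 ± 1.62 CPM (log2 1.66, SE 0.070, edgeR adjusted p = 4.5e-13). The 33 other syncytiotrophoblast genes, ERVW-1 included, summed to 92.6 to 106 against 48.4 to 51.8 CPM. Most of the difference between these sums was ERVW-1. Of 11 tested genes of this list it was the 1 called higher, and LGALS16 was called lower (0.129 ± 0.0664 against 0.334 ± 0.123 CPM). GCM1 was at 77.1 ± 8.44 against 51.4 ± 1.43 CPM. Their part in the members' levels was not tested.

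**Figure D3:**
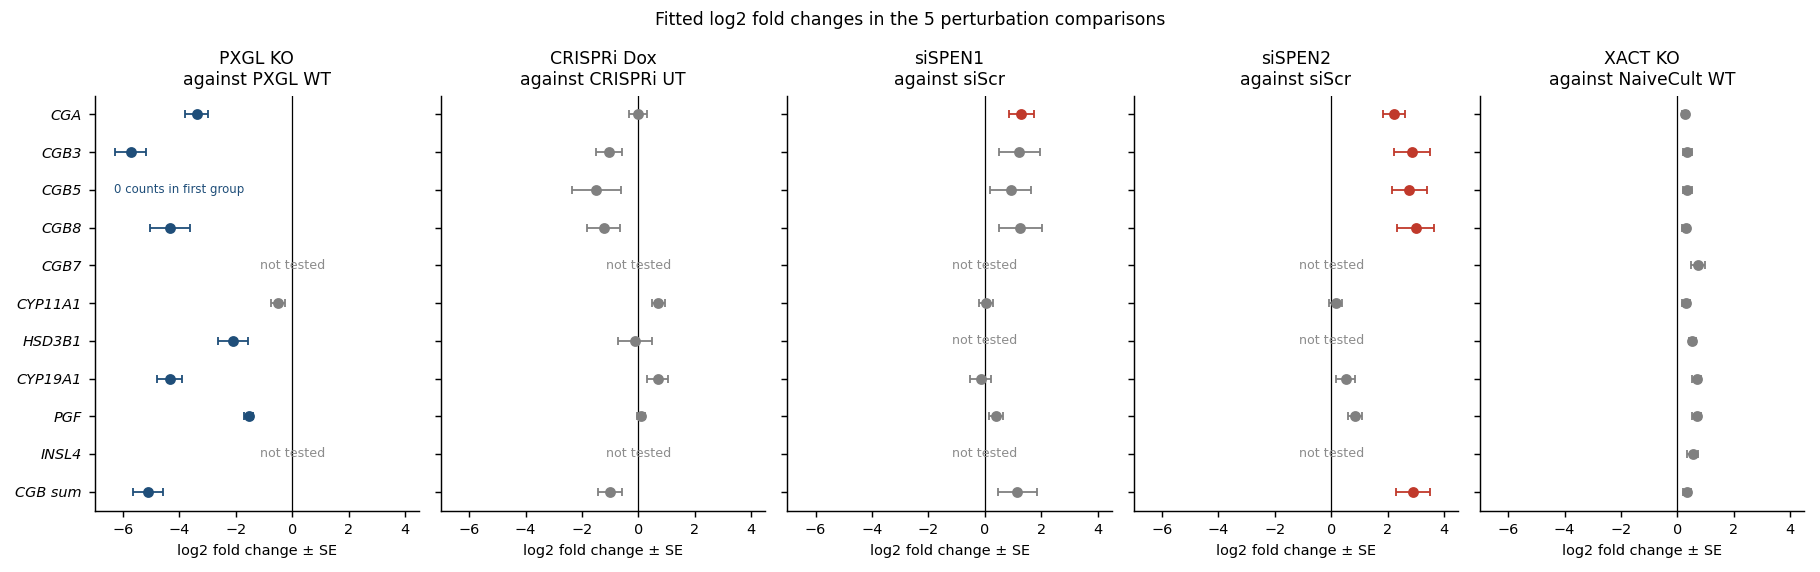
Fitted log2 fold changes (points) with 1 SE to each side (bars) for the 10 members and the CGB sum in 5 comparisons; CGB5 in PXGL KO, at 0 counts, is marked in words. Blue marks genes called lower, red genes called higher and grey genes not called, by the thresholds given above. The calls are lower in PXGL KO (CGA -3.38) and higher in siSPEN1 (CGA 1.30) and siSPEN2 (CGA 2.228), with none in CRISPRi Dox or XACT KO.

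Whether SPEN touches these genes was read from the siRNA libraries. CGA was at 0.951, 1.28 and 4.003 CPM in siScr, 3.68, 8.53 and 3.22 in siSPEN1 and 8.96, 14.7 and 5.37 in siSPEN2. The siSPEN2 libraries lay above all siScr libraries, while siSPEN1 overlapped siScr replicate 3. The CGB sum had 24, 5 and 139 counts in siScr, 47, 163 and 114 in siSPEN1 and 343, 917 and 162 in siSPEN2. Within each group 1 library stood high: siScr replicate 3, siSPEN1 replicate 2 and siSPEN2 replicate 2 were each the highest of their group for 8 of 10 members.

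In siSPEN2 against siScr 4 of 7 tested members were called higher, against 2.54% of 16448 genes. CGB3, CGB5, CGB8 and the CGB sum did not reach the minimum count of 10 in every siScr library and passed the filter with the siSPEN groups. The count and the values of these copies and of their sum are therefore a description. CGA rose by 2.228 (SE 0.40, edgeR adjusted p = 0.00015), CGB3 by 2.88 (SE 0.64), CGB5 by 2.77 (SE 0.63) and CGB8 by 2.99 (SE 0.67). The CGB sum rose by 2.91 (SE 0.61). Leaving out siScr replicate 3 moved it to 4.93 and leaving out siSPEN2 replicate 2 to 2.15. DESeq2 called CGA and CGB8 only, with adjusted p of 0.060 for CGB3 and 0.086 for CGB5.

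The other members moved less. PGF was at 11.98, 13.7 and 8.12 CPM in siSPEN2 and 6.07, 4.06 and 8.59 in siScr and passed the adjusted p but not the fold threshold (log2 0.85, SE 0.25, edgeR adjusted p = 0.010). By the adjusted p alone, at any fold, 20.5% of genes were higher. PGF no longer passed without siSPEN2 replicate 2 (0.062) or siScr replicate 2 (0.069), or with DESeq2 (0.12). CYP19A1 was at 1.59, 1.32 and 1.32 CPM against 0.833, 0.556 and 1.58 (log2 0.51, SE 0.34, edgeR adjusted p = 0.25) and CYP11A1 at 1.78, 1.32 and 1.15 against 1.38, 1.05 and 1.33 (log2 0.16, SE 0.23, edgeR adjusted p = 0.62). Between siSPEN2 libraries the CGB sum ranged from 3.40 to 17.8 CPM, whereas CYP19A1 ranged from 1.32 to 1.59 CPM. HSD3B1, CGB7 and INSL4 did not pass the filter. CGB7 had 5, 29 and 3 counts in siSPEN2 and 1, 3 and 0 in siScr.

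With siSPEN1 only CGA was called higher, 1 of 7 tested, against 2.24% of genes (log2 1.30, SE 0.43, edgeR adjusted p = 0.019). This call was lost with DESeq2 (adjusted p = 0.12) and without siSPEN1 replicate 2 (0.19), siScr replicate 1 (0.085) or siScr replicate 2 (0.084). The CGB sum differed by 1.15 (SE 0.69, edgeR adjusted p = 0.19). Without siScr replicate 3 it differed by 3.17, and CGA, CGB3, CGB5 and CGB8 were all called higher. The CGB copies and their sum passed the filter with the siSPEN groups here too, so their calls are a description. The mixes were also compared with each other: CGB3, CGB5 and CGB8, 3 of 7 members, were called higher with siSPEN2 than with siSPEN1, against 1.57% of genes, with a CGB sum 1.75 higher (SE 0.55, edgeR adjusted p = 0.018). These calls were lost with DESeq2 and without siSPEN1 replicate 1, siSPEN1 replicate 3 or siSPEN2 replicate 2 (edgeR adjusted p for the CGB sum 0.073, 0.064 and 0.23). CGA differed by 0.93 between the mixes (SE 0.37, edgeR adjusted p = 0.057). The siSPEN1 and siSPEN2 comparisons share the siScr libraries.

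**Figure D4:**
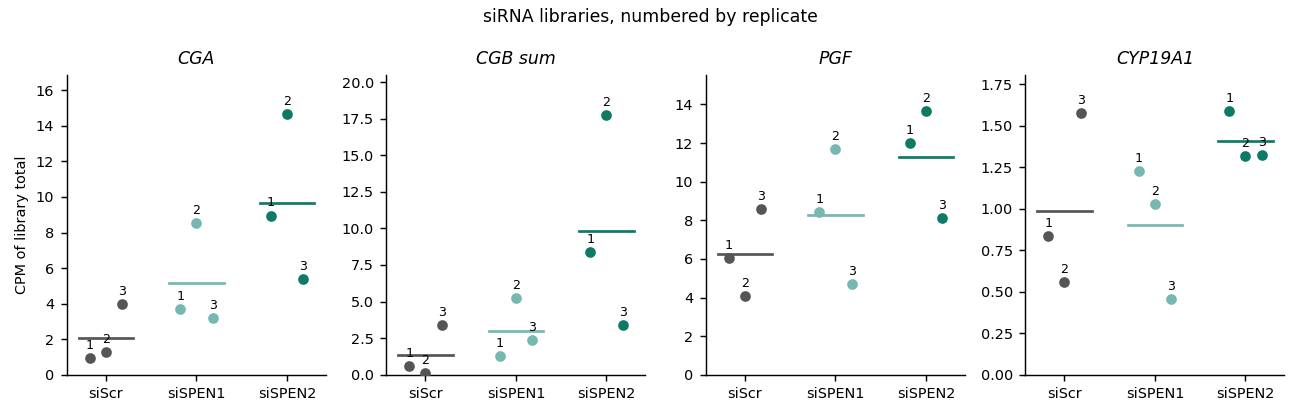
CPM of the library total for CGA, the CGB sum, PGF and CYP19A1 in the 9 siRNA libraries, on linear axes that start at 0. Points are libraries, numbered by replicate, and lines are group means. siSPEN2 replicate 2 is at 14.7 CPM for CGA and 17.8 CPM for the CGB sum, above the other 2 siSPEN2 libraries, while the CYP19A1 points of siSPEN2 lie close together.

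The trophoblast markers did not follow the gonadotropin genes in these libraries. Their sum was 128 to 139 CPM in siScr, 106 to 117 in siSPEN1 and 121 to 129 in siSPEN2, and GCM1 was at 34.4 ± 2.64, 24.9 ± 2.08 and 33.2 ± 0.525 CPM. With siSPEN1, HAND1 and GATA3 were called lower among 10 tested markers. In siSPEN2 against siScr, of 10 tested markers 1 was called, KRT7, at 2.97 ± 0.273 against 1.30 ± 0.392 CPM (log2 1.19, SE 0.20, edgeR adjusted p = 4.9e-05). Of 10 tested other syncytiotrophoblast genes 4 were called higher with siSPEN2: SDC1, ERVV-1, EBI3 and ERVFRD-1. ERVV-1, the gene most like CGA over the groups, was at 1.31 ± 0.270 against 0.543 ± 0.390 CPM (log2 1.28, SE 0.42, edgeR adjusted p = 0.019). Of 14 tested steroid partners 2 were higher and 2 lower with siSPEN2 by the adjusted p alone, all short of the fold threshold.

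In XACT KO no member was called, and the ranges of most members overlapped those of NaiveCult WT. CGA was at 356, 261 and 359 CPM against 267, 237 and 309, CYP19A1 at 90.8, 66.9 and 101 against 55.3, 39.9 and 67.3, and PGF at 171, 137 and 216 against 114, 76.1 and 139. These ranges overlap. HSD3B1 was at 90.0, 72.0 and 103 CPM against 56.4, 60.5 and 67.8, and the groups were apart.

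edgeR called 0 of 10 members, against 0.0607% of 16472 genes called higher and 0.0546% lower, and DESeq2 also called 0. By the adjusted p alone HSD3B1 was higher (log2 0.53, SE 0.11, edgeR adjusted p = 0.044), as 0.206% of genes were. At an unadjusted p under 0.05 all 10 were higher, against 9.02% of genes, with fitted log2 fold changes from 0.28 (CGA) to 0.72 (CGB7) and a median of 0.44, against -0.000234 over all genes. CYP19A1 differed by 0.68 (SE 0.16, edgeR adjusted p = 0.058), PGF by 0.68 (SE 0.17, edgeR adjusted p = 0.071) and the CGB sum by 0.34 (SE 0.13, edgeR adjusted p = 0.19). The members ranked alike between libraries. NaiveCult WT replicate 3 and XACT KO replicate 3 were each the highest of their group for 10 of 10 members, and XACT KO replicate 2 the lowest for 10 of 10. The trophoblast markers summed to 268 to 336 CPM in XACT KO and 237 to 271 in NaiveCult WT, and XACT KO replicate 2, the lowest for the members, was also the lowest for these markers. Their part in the difference was not tested.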

How the data were processed

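Total RNA of 30 H9 libraries was sequenced as stranded paired reads after ribosomal RNA depletion. The authors trimmed the reads (Trim Galore 0.6.5), aligned them locally to hg38 and mm10 (Bowtie 2), removed duplicates (Picard 2.23.5), kept a mapping quality of at least 10, removed mouse feeder reads with XenofilteR and counted exonic reads (HTSeq 0.13.5, reverse stranded). The deposited values are raw counts per gene, not normalized. Reads that fit several CGB copies were dropped or placed in one of them.

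Levels are CPM of the library total, which ranged from 31190052 to 65637976 counts. Intervals and floors (3 counts over a group) cover counting error only. Tests were run with edgeR 4.0.16 in R 4.3.3 (quasi-likelihood, TMM factors, filterByExpr with a minimum count of 10 and total of 15) on 4 sets of libraries: 12 CRISPRi, PXGL WT and PXGL KO libraries (17286 genes), 9 siRNA libraries (16448), 6 NaiveCult WT and XACT KO libraries (16472), and 9 PXGL WT, NaiveCult WT and Primed WT libraries (18663). Adjusted p-values are over all genes of a set, and each SE was derived from the log2 fold change and its quasi-likelihood F. The fit was tested on simulated data with 200 changed genes. Alternatives were other scalings, DESeq2 1.42.0, no filter, single libraries left out, a replicate block and summed CGB copies. All 10 members are described. Of each list at most 4 called genes per comparison are named, those with the lowest adjusted p. Uncalled list genes named with values (GCM1, ERVW-1 in PXGL KO, ISL1, FDX1, FLT1, LHCGR, LHB and the CSH genes) were chosen after their values were seen. The members, lists and tests were chosen with earlier results of these data known. Exon lengths are unions of GENCODE 44 exons. The target of the knockout and of the CRISPRi guide is not reported here.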

Additional observations from a re-analysis of the deposited data

Results flagged for a closer look

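The effect of the knockout (PXGL KO against PXGL WT) and that of doxycycline (CRISPRi Dox against CRISPRi UT) differed for 7 of 8 tested members and for the CGB sum by the interaction term of edgeR's fit, which 21.8% of all genes tested passed. The knockout comparison was among the results known when the members were chosen, so these differences are a description. As knockout effect minus doxycycline effect on the log2 scale, they were -3.36 for CGA (SE 0.53), -4.68 for CGB3 (SE 0.82), -6.65 for CGB5 (SE 2.2), -3.09 for CGB8 (SE 1.0), -1.20 for CYP11A1 (SE 0.33), -5.03 for CYP19A1 (SE 0.60) and -1.63 for PGF (SE 0.22). For the CGB sum the difference was -4.12 (SE 0.75). CGB5 had 0 counts in PXGL KO, so its fitted value depends on the prior count. CYP11A1, CYP19A1 and PGF had fitted effects of opposite sign. These were -0.50 and 0.70 for CYP11A1, -4.35 and 0.68 for CYP19A1 and -1.54 and 0.089 for PGF. HSD3B1 differed by -1.97 (SE 0.84) and did not pass.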

How the results depend on the processing

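The counts of members called kept within 1.5 times under 233 of 252 alternatives. With DESeq2 they were 0 for siSPEN1 against siScr, 2 for siSPEN2 against siScr and 0 for siSPEN2 against siSPEN1, without a filter on low counts 3 for siSPEN1 against siScr and 1 lower for CRISPRi Dox, and by the adjusted p alone 1 higher for CRISPRi Dox and 1 for XACT KO. With the CGB copies summed they were 2 (siSPEN2 against siScr), 1 (siSPEN2 against siSPEN1) and 1 lower (PXGL WT against Primed WT), since 1 row replaces the copies. With single libraries left out they ranged from 0 to 3 lower (CRISPRi Dox), 0 to 4 higher (siSPEN1 against siScr) and 0 to 4 higher (siSPEN2 against siSPEN1). The CGB sum ranged with single libraries left out from -1.88 to -0.43 (CRISPRi Dox), 0.53 to 3.17 (siSPEN1 against siScr), 1.00 to 2.39 (siSPEN2 against siSPEN1) and 0.90 to 1.30 (PXGL WT against Primed WT). It was -1.003 (edgeR adjusted p = 0.0097) for CRISPRi Dox and 1.16 (1.7e-10) for siSPEN1 against siScr without a filter, 1.69 (0.28) for siSPEN2 against siSPEN1 with DESeq2 and 0.91 (0.0044) for PXGL WT against Primed WT without TMM factors, the last a lost call by the fold threshold. The cause of these shifts was not tested.

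With a replicate block the CGB sum passed in CRISPRi Dox, at -1.055 (edgeR adjusted p = 0.032), and no other call by both thresholds changed for a count or the CGB sum. By the adjusted p alone the block moved more: in XACT KO the CGB sum reached 0.36 (edgeR adjusted p = 0.013), as did 6 members that missed it without the block, all short of the fold threshold. The labels do not tie replicate numbers to clones, and whether CRISPRi UT and CRISPRi Dox libraries with the same number share a clone is not given. Correlations of deviations from the group means were -0.068 to 0.085 between same-numbered libraries and -0.080 to 0.10 between others.

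Signs that turned were all of values that were not called. In CRISPRi Dox CGA was 0.053 with the replicate block. With single libraries left out it ranged from -0.33 to 0.56 and was positive without CRISPRi Dox replicate 2 (0.22) or CRISPRi UT replicate 2. HSD3B1 ranged from -0.68 to 0.59 and was positive without CRISPRi Dox replicate 3 (0.21) or CRISPRi UT replicate 1, and PGF ranged from -0.043 (without CRISPRi Dox replicate 1) to 0.16. In siSPEN1 against siScr CYP11A1 ranged from -0.060 to 0.12, negative without siSPEN1 replicate 2 (-0.030) or siScr replicate 2, and CYP19A1 from -0.45 to 0.37, positive without siSPEN1 replicate 3 (0.23) or siScr replicate 3. CYP11A1 ranged from -0.021 to 0.29 in siSPEN2 against siScr and from -0.084 to 0.24 in siSPEN2 against siSPEN1, negative in both without siSPEN2 replicate 1. PGF in PXGL WT against Primed WT was -0.12 without TMM factors and ranged from -0.076 (without PXGL WT replicate 3) to 0.22. TMM scaling moved group mean levels by 0.846 to 1.09 times.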
